A study of Mus musculus with 4 samples.

Results

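The genes described here encode the small GTPases of the Rab, Arf, Arl and Sar1 families, which direct vesicle traffic. The rule uses symbols and no measured value, and takes every symbol of the authors' table made of Rab, Arf or Arl with its number and letter, and Sar1a and Sar1b. This gave 83 of the 16709 gene symbols listed, namely 55 Rab, 20 Arl, 6 Arf and 2 Sar1 genes. Genes in the stretch of chromosome 10 around Mdm2 were to be left out, and 0 of the members lay there. Both groups were 3T3-L1 preadipocytes, an immortal mouse fibroblast-like line that can be turned into adipocytes, and no other genotype or allele is named for either. One group received 25 µM Nutlin-3a for 24 h, a compound that keeps MDM2 from binding p53, and the other received an equal amount of its solvent, DMSO. RNA sequencing was done on 2 biological replicates per group, and the comparison asks which transcripts differ once p53 is released from MDM2.

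Rab, Arf, Arl and Sar1 proteins are switches that bind membranes when they carry GTP and leave them, or fall silent, when they carry GDP. Exchange factors load GTP, GTPase-activating proteins end the signal, and the loaded form recruits effectors such as coats, tethers and motors. Sar1 starts the COPII coat at the endoplasmic reticulum, class I Arf proteins start the COPI coat at the Golgi, and each Rab marks its own set of compartments. In fat cells, Rab proteins such as Rab10 are known for bringing the glucose transporter GLUT4 to the surface in response to insulin, and Rab18 is known for its place on lipid droplets.

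The deposited values are FPKM, fragments counted relative to transcript length and to all mapped fragments, and each group has a single value for a transcript. The replicates were not listed apart. No spread between replicates can therefore be had for any value below, no test was possible, and higher and lower describe only the size of a ratio between the 2 group values. A log2 ratio here is log2(FPKM + 1) in Nutlin-3a minus log2(FPKM + 1) in DMSO, which understates differences of weakly listed genes, and a fold is the plain ratio of FPKM. A gene was compared when its mean FPKM over both groups was at least 1 and it was above 0 in each, and it was called higher or lower at a 2-fold difference on the log2(FPKM + 1) scale. Where a pair of FPKM values is given without its groups, Nutlin-3a comes first. The treatment showed in Cdkn1a, the p53 target that encodes p21, with 386 FPKM under Nutlin-3a against 35.2 FPKM under DMSO. Ccng1, another p53 target, had 200 and 22.3 FPKM. Mdm2 went the other way, at 773 FPKM in DMSO and listed at 0 with the compound. A listed 0 can be a failed estimate in a table of this kind, and whether this one is was not tested. All 8 preadipocyte and fibroblast markers examined were above 0 in both groups, with sums of 2077 FPKM under Nutlin-3a against 4506 FPKM under DMSO. Vim made up most of both sums (1181 and 3169 FPKM). Dlk1, a marker of preadipocytes, was the only one with the higher value in Nutlin-3a (623 and 513 FPKM). All the others had the lower value there, among them Ly6a (84.3 and 316 FPKM) and Pdgfra (9.14 and 30.0 FPKM). The 4 neuronal and neuroendocrine markers listed summed to 1.02 and 0.598 FPKM, the 3 epithelial ones to 0.472 and 0.139 FPKM, the 2 endothelial ones to 1.62 and 0.0260 FPKM and the 3 macrophage ones to 7.38 and 3.46 FPKM. The 6 markers of mature adipocytes summed to 17.8 and 46.4 FPKM, a direction set by Fabp4 (8.65 and 42.0 FPKM). The other 5 had the higher value in Nutlin-3a, with Plin1 and Lep listed at 0 in DMSO. In these bulk samples, fewer cells of a type and less RNA per cell cannot be told apart. The part that other cell types or lost markers play in the values below was not tested.

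Of the 83 GTPase genes, 62 were compared. In Nutlin-3a, 7 of them were at least 2-fold higher, which is 11.3% of the 62 beside 6.62% of all 10331 genes compared. Another 4 were at least 2-fold lower, 6.45% beside 6.14% of all genes. The other 51 lay within the limit. The higher genes were Arl1, Arl5c, Arl4c, Rab21, Rab40c, Arl8a and Arf2, and the lower genes were Rab7b, Arl2, Rab13 and Rab34. A log2 ratio above 0 was found for 40 of the 62, or 64.5%, beside 54.8% of all genes. The median log2 ratio of the members was 0.20, with quartiles of -0.31 and 0.63, beside a median of 0.07 and quartiles of -0.33 and 0.44 over all genes.

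**Figure D1:**
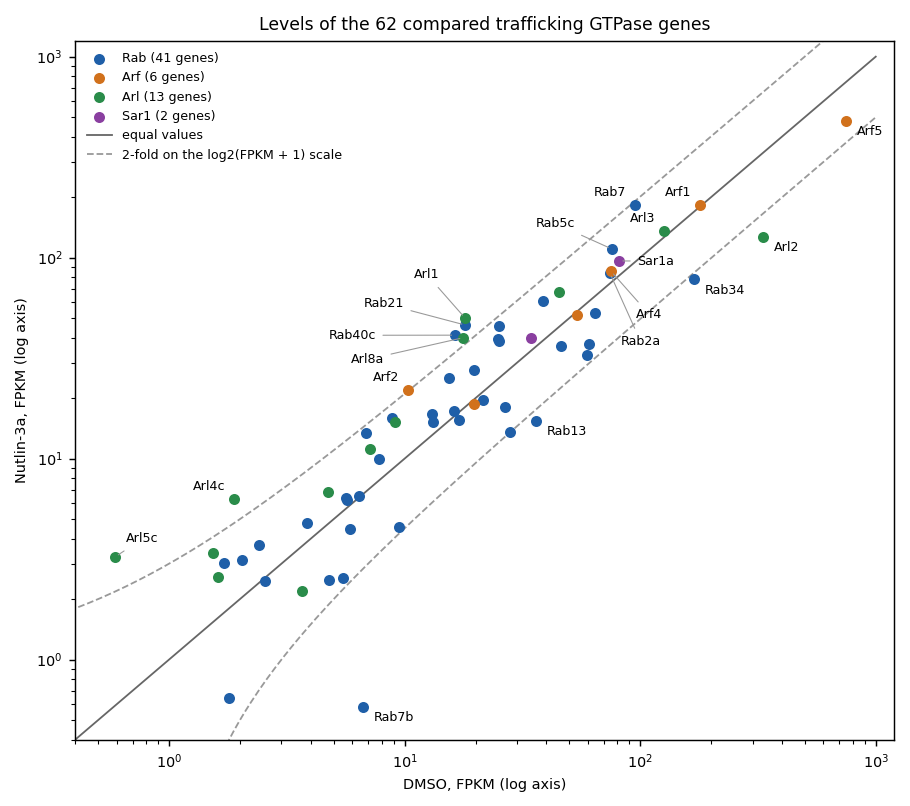
FPKM of the 62 compared GTPase genes in DMSO (horizontal log axis) and in Nutlin-3a (vertical log axis), 1 point per gene coloured by family, with the line of equal values and dashed lines at 2-fold on the log2(FPKM + 1) scale. The labelled genes are the 11 past the limit and the 10 of highest mean FPKM; Rab7b, at 0.584 against 6.65 FPKM, lies farthest from the line of equal values.

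The families differed in where their members lay. Of 13 Arl genes compared, 4 were higher, 1 was lower and 11 had a log2 ratio above 0, with a median of 0.59. Of 41 Rab genes, 2 were higher and 3 lower, and the median was 0.15. Among the 6 Arf genes 1 was higher and none was lower, with a median of -0.02, and both Sar1 genes lay within the limit. A difference between families, or between the places of action below, was not tested. Beside each of these counts stand the same shares of all genes, 6.62% higher, 6.14% lower and 54.8% above 0. In sets this small, 1 gene shifts the share a lot.

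Added together, the members held 0.271% of all FPKM under Nutlin-3a against 0.292% in DMSO, with sums of 2617 and 2863 FPKM. A few abundant genes made up much of this. Arf5, a class II Arf of the Golgi, was the most abundant member at 480 FPKM under Nutlin-3a against 746 FPKM under DMSO. Arl2, which works with tubulin-folding cofactors, followed at 127 and 331 FPKM. Without these 2 genes the order of the sums was the other way round, at 2010 FPKM under Nutlin-3a against 1786 FPKM under DMSO. Arf1, the class I Arf that recruits COPI, had nearly equal values of 182 and 179 FPKM. Arl3, a ciliary GTPase that releases lipid-modified cargo, had 135 and 126 FPKM, and Rab7, the main GTPase of late endosomes and lysosomes, had 183 and 95.5 FPKM.

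At the endoplasmic reticulum and Golgi, 3 of 21 compared genes were higher and 1 was lower. Arl1, which recruits golgin tethers to the trans-Golgi, was listed at 50.2 FPKM under Nutlin-3a against 18.0 FPKM under DMSO, a 2.78-fold higher value and a log2 ratio of 1.43. Arl5c had 3.25 and 0.591 FPKM, a plain fold of 5.49 that rests on a low value in DMSO. Its relatives Arl5a (11.2 and 7.13 FPKM) and Arl5b (1.56 and 0.274 FPKM) also had the higher value in Nutlin-3a, although Arl5a lay within the limit and Arl5b under the minimum mean. Arf2, a class I Arf, had 21.9 and 10.4 FPKM. Its log2 ratio of 1.01 was just past the limit, and lay just inside it after median centring (0.94). Arf3 (52.0 and 53.9 FPKM), of the same class, and Arf4 (85.5 and 75.2 FPKM), of class II, were close to equal between groups. The Golgi Rab genes Rab33b and Rab43 were within the limit as well, at 4.79 and 3.85 FPKM and at 10.0 and 7.77 FPKM. Close to equal too were Sar1a (96.3 and 81.5 FPKM) and Sar1b (40.0 and 34.2 FPKM), both GTPases of the COPII coat, and Rab2a (83.9 and 74.3 FPKM), a Rab of traffic between both organelles.

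Rab34, a Golgi-associated Rab that also takes part in building cilia, was the lower gene of this set. It had 77.9 FPKM under Nutlin-3a against 169.9 FPKM under DMSO, a 2.18-fold lower value, with a log2 ratio of -1.11 that came to -0.90, inside the limit, once GC content was corrected for. Rab30, another Golgi Rab, had 2.49 and 4.78 FPKM and stayed within the limit. Rab18, the Rab found on lipid droplets, had 25.1 and 15.5 FPKM, a log2 ratio of 0.66.

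All 7 compared genes of the early endosome had the higher value in Nutlin-3a, beside 54.8% of all genes, with a median log2 ratio of 0.46. The limit was passed by 1 of them, beside 6.62% of all genes. This was Rab21, known for the traffic of integrins, with 46.2 FPKM under Nutlin-3a against 18.1 FPKM under DMSO, a 2.55-fold higher value. Rab5c (111 and 75.7 FPKM), the most abundant of the Rab5 genes that govern fusion of early endosomes, had a log2 ratio of 0.54. Rab5a (15.8 and 8.82 FPKM) had 0.78 and Rab5b (6.23 and 5.67 FPKM) had 0.12. The listed models of Rab5a and Rab5b reach over Pp2d1 and Pmel, so both values are uncertain. The remaining 3 were Rab22a (27.5 and 19.7 FPKM), Rab20 (3.12 and 2.04 FPKM) and Rab31 (15.1 and 13.1 FPKM). Places of action were assigned with earlier results of these data known. The early recycling genes Rab4a (log2 ratio 0.09) and Rab4b (-0.69) were counted with recycling and not here.

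Genes of late endosomes, lysosomes and autophagy lay on both sides, with 1 of 8 higher, 1 lower and a median log2 ratio of -0.49. The 3 with the higher value in Nutlin-3a were Rab7, Arl8a and Arl8b. Arl8a, which couples lysosomes to kinesin motors, had 39.97 FPKM under Nutlin-3a against 17.8 FPKM under DMSO, a 2.25-fold higher value. Its close relative Arl8b had 67.8 and 45.1 FPKM, a log2 ratio of 0.58, and Rab7 lay just inside the limit at 0.93. Rab7b, which serves transport from late endosomes to the trans-Golgi, was the lower gene here. It was listed at 0.584 FPKM under Nutlin-3a against 6.65 FPKM under DMSO, an 11.4-fold lower value and a log2 ratio of -2.27. This fold rests on a low value in Nutlin-3a. The log2 ratio was -3.30 with a pseudocount of 0.1 and -1.06 with a pseudocount of 5.

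The other members of this group with the lower value in Nutlin-3a stayed within the limit. Rab9, which returns mannose 6-phosphate receptors from late endosomes to the Golgi, was nearest to it with 13.6 and 28.1 FPKM and a log2 ratio of -0.99. Rab29, known for recruiting the kinase LRRK2 to Golgi and lysosomal membranes, had 4.57 and 9.48 FPKM (-0.91). Rab24, linked to autophagy, had 33.0 and 59.6 FPKM (-0.84), and Rab32, of lysosome-related organelles, had 19.5 and 21.5 FPKM (-0.14). Rab9 and Rab29 had plain folds over 2, of 2.06 and 2.07, and in all 5 members within the limit had such a fold.

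Of 14 genes of recycling and of transport to the plasma membrane, 1 was higher and 1 lower, with a median log2 ratio of 0.05. Arl4c, which recruits cytohesin exchange factors to the plasma membrane, had 6.32 FPKM under Nutlin-3a against 1.89 FPKM under DMSO, a 3.35-fold higher value. Rab13, a Rab of surface delivery and cell junctions, had 15.4 and 36.2 FPKM, a 2.35-fold lower value. Rab13 was listed with 2 transcripts, and they did not differ to the same extent. One had 3.60 FPKM under Nutlin-3a against 18.96 FPKM under DMSO, and the other had 11.8 and 17.2 FPKM, so that the second alone gave a log2 ratio of -0.51, inside the limit. The GLUT4-linked Rab10 (16.6 and 13.1 FPKM), Rab14 (38.4 and 25.1 FPKM) and Rab8a (36.2 and 46.2 FPKM) stayed within it as well. So did Rab11a, the Rab of the recycling endosome (45.7 and 25.1 FPKM, 0.84), Rab35, of fast recycling (39.4 and 24.9 FPKM, 0.64), and Arf6, the Arf of the plasma membrane (18.7 and 19.6 FPKM). Rab12, of receptor turnover, had 6.52 and 6.43 FPKM.

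Among 6 genes of the cilium and of tubulin assembly, Arl2 was lower and none was higher. Arl2 had 127 FPKM under Nutlin-3a against 331 FPKM under DMSO, a 2.60-fold lower value with a log2 ratio of -1.37. Its binding partner Arl2bp had 54.9 and 58.9 FPKM, and the tubulin cofactors Tbcd and Tbce had 9.69 and 8.23 FPKM and 10.2 and 15.9 FPKM. The ciliary GTPases Arl13b (3.38 and 1.54 FPKM) and Arl6 (15.2 and 9.13 FPKM), the latter a recruiter of the BBSome, had log2 ratios of 0.79 and 0.68. Rab23, an inhibitor of hedgehog signalling, had 3.72 and 2.41 FPKM, and Rab28, a Rab of the cilium, had 18.1 and 26.7 FPKM. The listed gene model of Arl6 spans 992211 bases beside 26461 bases in RefSeq and reaches over Epha6, so its value is uncertain.

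Rab genes of regulated secretion were weakly listed, and 2 of 8 were compared. Rab3a had 4.47 and 5.84 FPKM, and Rab3d had 0.647 and 1.79 FPKM, both lower in Nutlin-3a within the limit. Among the genes given no place of action, Rab40c, whose SOCS box links it to a cullin ubiquitin ligase, had 41.1 FPKM under Nutlin-3a against 16.4 FPKM under DMSO, a 2.51-fold higher value. Its relative Rab40b had 3.04 and 1.72 FPKM, a log2 ratio of 0.57, and Arl15 and Arl16 had log2 ratios of 0.45 and 0.45.

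Genes that share a family number were set side by side as copies. Their sequences were not compared, so how closely they are related was not examined. Of 18 sets of copies that share a family number, 14 had at least 2 copies compared, and in 8 of these the copies had log2 ratios of both signs, some of them near 0 (Rab2b -0.04, Rab4a 0.09). In 3 sets they were more than 1 log2 unit apart. The widest gap was that of Rab7 and Rab7b, at 3.20 log2 units. The less abundant copy made 6.65 of 102 FPKM in DMSO and 0.584 of 183 FPKM in Nutlin-3a, so the summed value of both followed Rab7. Rab6a (13.4 and 6.88 FPKM) and Rab6b (2.56 and 5.49 FPKM), of Golgi traffic, were 1.74 log2 units apart, and each lay inside the limit. Rab6a made 55.6% of the summed Rab6 FPKM in DMSO and 83.99% in Nutlin-3a. The listed model of Rab6a also covers Mrpl48, which makes its value uncertain.

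In 2 of the 14 sets the more abundant copy was not the same in both groups. Arl4d made 63.4% of the summed Arl4 value in DMSO and 23.9% in Nutlin-3a, with 3.65 FPKM in DMSO and 2.20 FPKM in Nutlin-3a, and Arl4c led there. Rab1b, of traffic from the endoplasmic reticulum to the Golgi, made 62.4% of the summed Rab1 value in DMSO and 46.7% in Nutlin-3a. Rab1, the gene of Rab1A, had 60.7 FPKM under Nutlin-3a against 38.7 FPKM under DMSO, and Rab1b had 53.2 and 64.2 FPKM. The Rab4 copies of early recycling were unequal too, since Rab4a had 17.3 and 16.2 FPKM and Rab4b had 37.1 and 60.4 FPKM. Rab11a and Rab11b (15.6 and 17.0 FPKM), Rab8a and Rab8b (6.38 and 5.67 FPKM) and Rab2a and Rab2b (2.46 and 2.57 FPKM) were the other sets of both signs. Copies that shared a sign were those of Rab3, Rab5, Rab40, Arl5, Arl8 and Sar1. Closely related copies can share reads, and how such reads were counted is not given in the sources used here.

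**Figure D2:**
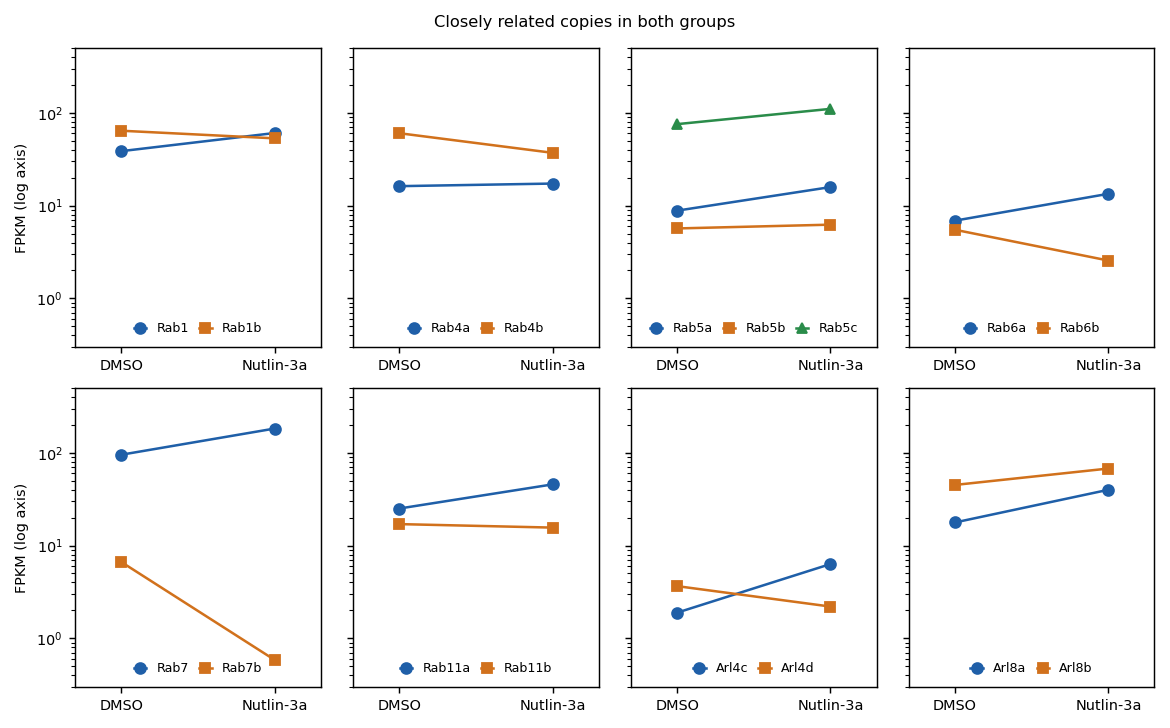
FPKM (log axis) in DMSO and Nutlin-3a for 8 sets of copies that share a family number, 1 line per gene joining its 2 group values. No error is shown because the authors' table has none per library. The lines of Rab7 and Rab7b and those of Rab6a and Rab6b run apart, those of Arl4c and Arl4d and of Rab1 and Rab1b cross, and those of the 3 Rab5 and the 2 Arl8 copies run the same way.

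The 105 listed transcripts of the members gave few cases of unequal transcripts within a gene. A single transcript was listed for 67 members, and 16 had 2 or more. Among transcripts with a mean of at least 1 FPKM, 0 members had 1 transcript at least 2-fold higher and another at least 2-fold lower. Beside Rab13, Rab7 had transcripts of unequal ratio, with 163 and 91.97 FPKM for the most abundant and 19.1 and 3.48 FPKM for the next. In Rab34 the main transcript had 75.6 and 168 FPKM, and a minor one had 2.33 and 1.98 FPKM, with the higher value in Nutlin-3a. The single transcripts of Arl1 and Arf5 carry the authors' class code j, whereas most transcripts of the members carry the code =. The codes were not used here.

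The 21 members that were not compared had low values in these cells, and 16 of them had the higher value in Nutlin-3a and 5 the higher value in DMSO. The matching share of all genes under the minimum was not counted, so these counts have nothing to stand beside. In DMSO 6 were listed at 0, namely Arl9, Arl13a, Arl14, Rab3c, Rab15 and Rab44, and Arl11 was listed at 0 in Nutlin-3a. The highest among these 7 was Rab44, at 0.721 FPKM in Nutlin-3a. No fold is given against such a 0, which can be a failed estimate in a table of this kind. Rab27a and Rab27b, known for the release of secretory granules, stayed at or below 0.372 FPKM in both groups. Rab25 and Rab17, Rab genes of epithelial cells, had 0.657 and 0.426 FPKM with the compound beside 0.298 and 0.0398 FPKM with the solvent. Arl5b was nearest to being compared, with a mean of 0.916 FPKM. Also under the minimum mean, and above 0 in both groups, were Arl4a, Arl10, Rab3b, Rab33a, Rab36, Rab37, Rab39, Rab39b and Rab42.

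Genes that act on or with these GTPases lay mostly within the limit. On 10 lists of exchange factors, GTPase-activating proteins, prenylation enzymes, effectors and coats, 232 genes were compared. Of these, 8 (3.45%) were higher and 8 (3.45%) lower, beside 6.62% and 6.14% of all genes, and their median log2 ratio was 0.06. None of the 7 genes of Rab prenylation and membrane extraction passed it. Gdi2, which takes Rab proteins off membranes, had 80.8 and 67.4 FPKM. The 9 compared COPI subunits ran from -0.44 to 0.36, and 0 passed the limit.

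Among 42 Rab exchange factors, 3 were higher and 2 lower. Rabgef1, the Rab5 exchange factor Rabex-5, had 13.6 FPKM under Nutlin-3a against 3.46 FPKM under DMSO, a 3.92-fold higher value. Ric1, part of the exchange factor for Rab6, had 2.92 and 0.844 FPKM, and Dennd2c, of the DENN domain family, had 2.66 and 0.611 FPKM. Rab3il1, of the Rabin family, had 6.85 and 20.0 FPKM, a 2.92-fold lower value, and Dennd2a had 7.49 and 20.4 FPKM. Of 31 Rab GTPase-activating proteins, 2 were higher and none lower. Tbc1d2, known to act on Rab7, had 6.12 and 0.288 FPKM, the largest log2 ratio on these lists at 2.47, and Tbc1d20, which acts on Rab1, had 3.11 and 0.715 FPKM. Tbc1d4, the AS160 protein that restrains GLUT4 traffic until insulin acts, had 2.96 and 2.75 FPKM.

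Of 49 Rab effectors, 2 were higher and 1 lower. Sytl1, a synaptotagmin-like effector of Rab27, had 4.34 and 0.330 FPKM, and Exoc4, a subunit of the exocyst tether, had 2.84 and 0.340 FPKM. Mical1, an oxidase of actin that binds Rab proteins, had 5.94 and 20.9 FPKM, a 3.51-fold lower value. On the Arf side, 0 of 9 exchange factors passed the limit, with a median of 0.35, and 2 of 17 GTPase-activating proteins were lower. These were Arap1 (8.52 and 27.6 FPKM) and Arfgap1, which acts on Arf1 at the Golgi (17.1 and 35.7 FPKM). Of 14 genes of the COPII coat and its exit sites, the cargo adaptor gene Sec24d (2.59 and 7.63 FPKM) and the scaffold gene Sec16b (0.701 and 3.28 FPKM) were lower. Of 32 Arl partners, Elmod3, of a family that acts on Arl2, was higher (15.1 and 3.71 FPKM), and Kxd1, a subunit of the BORC complex that recruits Arl8, was lower (21.8 and 55.2 FPKM). None of 22 genes of Golgi adaptors and other Arf or Arl1 effectors, and none of 8 related small GTPases such as Arfrp1, passed it.

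**Figure D3:**
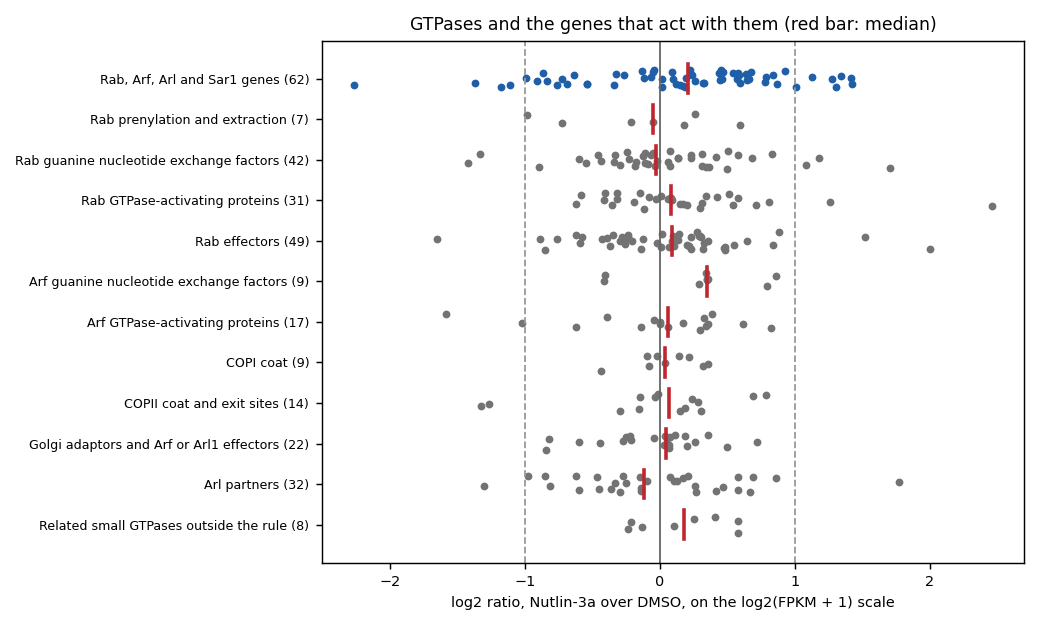
Log2 ratio of Nutlin-3a over DMSO on the log2(FPKM + 1) scale for the 62 GTPase genes (top, blue) and for the compared genes of 11 lists (grey; 10 of partners and 1 of related GTPases), 1 point per gene with vertical scatter only for legibility, numbers of genes in brackets, red bars at medians and dashed lines at the 2-fold limit. Medians of the partner lists run from -0.12 to 0.35, and Tbc1d2 lies farthest to the right at 2.47.

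Ratios moved with the base composition of the transcripts, in the members as in all genes. Across the 62 members, log2 ratio and GC content had a Spearman rho of -0.34, and across 9939 genes a rho of -0.23. These describe genes of the same 2 group values, which are not independent replicates, and no p is given. The 31 members of lower GC content had a median log2 ratio of 0.45, with 25 above 0, and the 31 of higher GC content had a median of -0.05, with 15 above 0. GC content ran from 46.2% to 56.7% in the 7 higher members and from 49.5% to 56.7% in the 4 lower ones. Once GC content was corrected for, 6 were higher and 4 lower, beside 7.28% and 4.799% of all genes with a GC content, with Arf2 (0.97) and Rab34 inside the limit and Rab9 past it. The part of base composition in the remaining differences was not tested.

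**Figure D4:**
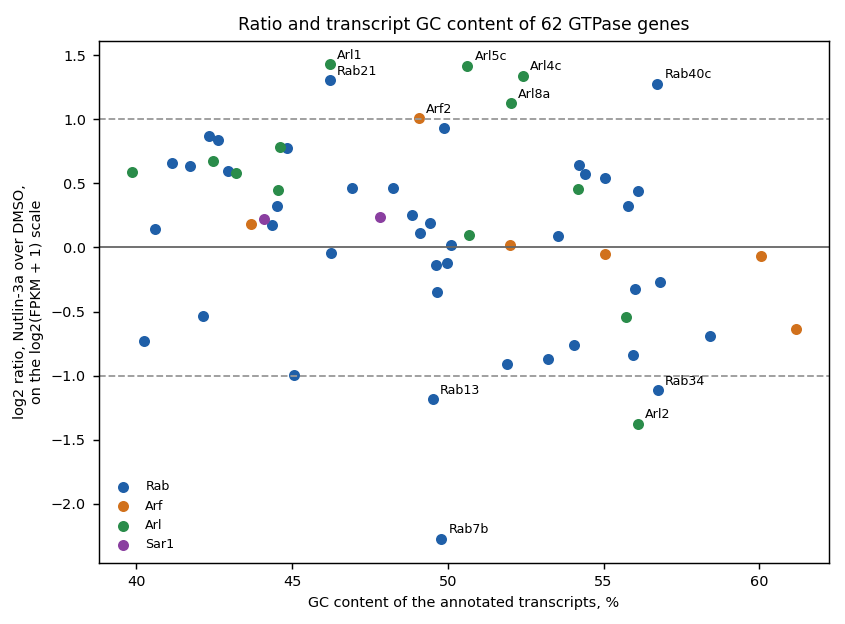
Log2 ratio of Nutlin-3a over DMSO on the log2(FPKM + 1) scale (vertical axis) against the GC content of the annotated transcripts in percent (horizontal axis) for 62 GTPase genes coloured by family, with dashed lines at the 2-fold limit. Points fall from left to right on the whole (Spearman rho -0.34), and the labelled genes past the limit lie between 46.2% and 56.7% GC.

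The genes past the limit lie on several chromosomes (mm10, whole gene models as listed). Arl1 (88731414 to 88743202) and Rab21 (115289862 to 115315591) are on chromosome 10. Arf2 (103966725 to 103985350), Arl5c (97989580 to 97996173) and Rab34 (78188427 to 78192193) are on chromosome 11. Chromosome 1 holds Arl4c (88698226 to 88702191), Arl8a (135146834 to 135156268) and Rab7b (131688695 to 131713464). Rab13 is on chromosome 3 (90213715 to 90226387), Rab40c on chromosome 17 (25882114 to 25919714) and Arl2 on chromosome 19 (6134389 to 6141137). None of these 11 models reaches over another coding gene of RefSeq, whereas those of 11 other members do. Besides Rab5a, Rab5b, Rab6a and Arl6, these include Arf3, Arl13b, Arl16, Rab2b and Rab3a, whose values are uncertain for the same reason. The authors list Gm10012 (2.83 and 1.18 FPKM) at the same coordinates as Rab40c.

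Promoter sequences from RefSeq (build GRCm38.p6) were found for 70 members, and the 250 bases before each start were searched on both strands. They cover 6 higher and 3 lower members. Arl5c and Rab7b had no promoter there and were not searched. Motifs were counted separately, so matches of different motifs can overlap. CACGTG, the E-box core that factors such as MYC, USF and TFEB bind, lay in 10 of the 70 members (14.3%) and in 6.86% of all 27025 genes with a promoter there, many of them noncoding. It was found in 1 higher member, Rab21, and in 1 lower member, Arl2. A half-site of the p53 consensus lay in 4 members (5.71%) beside 8.20% of all genes. Among members past the limit it was found in Rab13, a lower one. GGGCGG lay in 77.1% of members and 35.4% of all genes, CCAAT in 51.4% and 37.5%, and TATAAA in 8.57% and 14.3%. A match is a run of letters and not a shown binding site.

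The 120 bases before the start are shown for these 3 genes, because they are the searched members past the limit that hold an E-box core or a p53 half-site. Each is written 5′ to 3′ on the gene's strand with the match in capitals. The window of Rab21 is chr10:115315592-115315711 on the minus strand, that of Arl2 is chr19:6141138-6141257 on the minus strand, and that of Rab13 is chr3:90213595-90213714 on the plus strand, at the upstream one of its starts in the reference. The E-box core ends 25 bases before the start in Rab21 and 63 bases before it in Arl2, and the half-site ends 96 bases before it in Rab13.

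Rab21: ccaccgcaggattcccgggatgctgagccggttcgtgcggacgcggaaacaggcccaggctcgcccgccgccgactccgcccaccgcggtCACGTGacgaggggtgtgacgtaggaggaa

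Arl2: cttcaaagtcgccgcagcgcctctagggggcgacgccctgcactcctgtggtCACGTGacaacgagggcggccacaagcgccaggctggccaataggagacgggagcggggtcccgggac

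Rab13: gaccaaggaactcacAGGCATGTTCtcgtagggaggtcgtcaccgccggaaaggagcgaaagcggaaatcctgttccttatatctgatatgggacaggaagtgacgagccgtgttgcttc

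The same core thus stood in front of a gene with 46.2 against 18.1 FPKM and of one with 127 against 331 FPKM, Nutlin-3a first. Of the other 5 higher members with a promoter in the reference, 0 held the core or the half-site.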

How the data were processed

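The labels put 4 libraries of 3T3-L1 cells into 2 groups of 2 biological replicates. Nothing in the labels says that they came from separate cultures. Alignment tool and build were TopHat2 2.0.11 and mm10, per the submitters' processing notes. Quantifier, annotation and the way replicates were combined: not given in the sources used here. Expression was deposited by the authors as FPKM per transcript, with 1 column per group, so depth per library is unknown. The header prefix DSM was read as DMSO, the only other group. Further deposited columns per the file headers hold log2 of the same FPKM and were not used. A total of 24746 transcripts were read, and 4294 empty lines were left out.

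FPKM was summed per symbol. The table used has no value per library, so the planned limma fit was replaced by the 2-fold limit. Members, lists and places of action were chosen with earlier results of these data known. Genes were named by rule: members past the limit, the 10 most abundant, the 5 nearest to the limit on each side, up to 2 more per place of action, copies of named members, and up to 4 genes per partner list past the limit; others are examples chosen after their values were seen. Of the listed partners, 1 was left out by its position on chromosome 10, 11 are not analysed here, and 6 were found by a RefSeq synonym. GC content came from GENCODE M21 transcripts (96.2% of compared genes, all 62 members). Python 3.11.15, pandas 2.3.3 and statsmodels 0.14.6 (lowess, span 0.3) were used. The calls were tested on simulated data, as a check of the calculation only. How reliable the calls are in these cells was not tested, because no spread between replicates is known. Alternatives covered pseudocounts, filters, scalings, fold limits, transcript choice and GC content.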

Additional observations from a re-analysis of the deposited data

How the results depend on the processing

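Counts of members past the limit depended on the pseudocount and the limit. A pseudocount of 0.1 gave 8 higher and 8 lower (9.66% and 8.18% of all genes), and a pseudocount of 5 gave 3 higher (Arl1, Rab21 and Rab40c) and left 4 lower (2.41% and 2.82%). With a 1.5-fold limit 18 were higher and 12 lower, beside 17.8% and 15.2% of all genes, and among partner genes 26 and 28. With a 3-fold limit 0 were higher and 1, Rab7b, was lower (1.95% and 1.49%). Under the other settings tried, and without members whose models reach over another coding gene (an alternative chosen after seeing the data), 5 to 8 members were higher and 3 to 5 lower. The shares of all genes there were 5.43% to 7.28% higher and 4.65% to 7.06% lower. The members compared ran from 48, with a minimum mean of 5 FPKM, to 76, with no filter on low values. The members' median log2 ratio stayed between 0.13 and 0.24 under all settings, and no member past the limit reversed. Rab7b passed the limit in the 11 alternatives that compared it, while Arf2 passed it in 7 of 12. A minimum mean of 5 FPKM left out Arl4c, Arl5c and Rab7b.

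No paired analysis was possible because the authors' table has 1 value per group and none per library. For the same reason no replicate was left out, and the limma alternatives were not run. Precision cannot be stated, and values near 0 are the least certain.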

Other observations

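Neighbours of some members shared their direction. Within 1 Mb of Rab21, all 3 other genes compared had the higher value in Nutlin-3a, and 2 of them passed the limit. The shares of all genes to set beside the counts here are 54.8% above 0, 6.62% higher and 6.14% lower. Tmem19 had 23.2 FPKM under Nutlin-3a against 10.3 FPKM under DMSO, Zfc3h1 had 10.7 and 4.25 FPKM, and Tbc1d15, a GTPase-activating protein for Rab7, had 11.5 and 6.61 FPKM. Rab21 ends 684409 bases before the stretch around Mdm2 that was left out, and whether the copy number of this region bears on these values was not tested. Around Rab13, 8 of 45 compared neighbours were lower and 2 higher, with a median log2 ratio of -0.31. S100a1, S100a13, S100a16 and S100a4, which lie close together, are among the 8. Around Arl8a, 3 of 18 were higher and 0 lower. Around Rab7b, 3 of 19 were higher and none lower, although Rab29, which starts 153813 bases beyond it, was among those with the lower value in Nutlin-3a. Around the other members past the limit the median of the neighbours lay between -0.23 and 0.11.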
